A study of Homo sapiens with 9 samples.

Results

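The genes described here encode 9 proteins of the complement system, C1R, C1S, C3, CFB, C5, CFI, CD46, CD55 and CD59, and were measured in HuCCT1, a human cholangiocarcinoma cell line. They were found as every probe set with that single gene symbol in the platform annotation, which gave 20 probe sets for the 9 genes among 19775 named genes. The study hybridised 9 arrays, of which 4 came from HuCCT1 cells with the empty vector and 5 from HuCCT1 cells with YAPS127A. That is a constitutively active form of the transcriptional co-activator YAP1, which the Hippo pathway cannot phosphorylate at the mutated serine. All arrays share the cell line. Neither the promoter of the vector nor whether the cells were clones or pools is stated in the labels. Nor do the labels tie the numbered samples to independent cultures, so that the p-values speak of the spread among these samples alone, and that spread may be technical.

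Complement is a cascade of plasma proteins that marks and lyses microbes and damaged cells. The proteases C1R and C1S start the classical pathway, CFB carries the protease of the alternative pathway, both converge on the cleavage of C3, and cleavage of C5 starts the lytic membrane pore. Host cells are shielded by the plasma protease CFI and by CD46, CD55 and CD59 on their own surface. The liver makes most of the plasma proteins, but epithelia, those of the bile ducts included, also express several of them, often under the control of inflammatory cytokines.

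With YAPS127A, transcripts of 3 of the 5 activating components, CFB, C3 and C1R, were lower, and CD46 and CD55 of the membrane regulators moved in opposite directions. CFB fell 2.81-fold, C3 1.84-fold and C1R 1.57-fold, each with every YAPS127A array below every empty vector array, as held for 13.8% of all genes. A second, dim probe set of CFB did not pass. Among the regulators CD46 fell 1.33-fold and CD55 rose 1.21-fold, while 3 of the 5 probe sets of CD59 fell and its brightest did not pass. Only the brightest probe set of CD55 passed. CD46 lost its call with the median of its chromosome neighbours removed, as described below. C1S, C5 and CFI had signals below the median of all probe sets and did not pass the test.

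With each gene taken at its brightest probe set, 4 of the 9 passed as lower, 1 passed as higher and 4 failed the test, in limma with Benjamini-Hochberg adjustment over all 54613 probe sets at a threshold of 0.05. Of all genes 28.7% passed, with 14.2% of all genes lower and 14.5% higher. Among the 12226 genes with a mean signal above the median of all probe sets (a log2 signal of 5.96) the share was 40.7% (21.0% higher, 19.7% lower), and 5 of the 6 complement genes above that median passed. The median log2 difference of the 9 genes was -0.14, against 0.00 over all genes. Of their 20 probe sets, 9 fell and 1 rose, against 6546 lower and 6506 higher (23.9% together) among all 54613 probe sets. The groups did not overlap in 8 of the 20, all of them among the 10 that passed. Over all probe sets, whether they passed or not, that share was 22.3%. With the median of chromosome neighbours removed, a step described below, the excess of falls among the probe sets was lost, with 4 lower and 5 higher. Of the genes 3 were then lower and 2 higher. The 9 genes were chosen with earlier results of these arrays known.

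Promoter sequences are shown for CFB and C1R, because both fell and the windows of both hold letters that known transcription factors bind. They are the 250 bases before the start of transcription, 5′ to 3′, from RefSeq on GRCh38.p14, at chr6:31945845-31946094 on the plus strand for CFB and chr12:7092446-7092695 on the minus strand for C1R. In all, 7 of the 9 genes had such a window, all but C1S and C3. Both strands were searched for CATTCC, bound by the TEAD partners of YAP1, TTCNNNGAA, bound by STAT factors, GAAA followed after any 2 bases by GAAA, bound by interferon regulatory factors, and the NF-kB consensus. Capitals mark every match, and no 2 matches overlap.
CFB: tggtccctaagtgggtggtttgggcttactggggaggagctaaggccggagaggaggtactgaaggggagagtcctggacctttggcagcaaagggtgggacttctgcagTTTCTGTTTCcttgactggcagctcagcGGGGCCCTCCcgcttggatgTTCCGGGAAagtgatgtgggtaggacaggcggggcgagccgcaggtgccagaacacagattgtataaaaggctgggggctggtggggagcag
C1R: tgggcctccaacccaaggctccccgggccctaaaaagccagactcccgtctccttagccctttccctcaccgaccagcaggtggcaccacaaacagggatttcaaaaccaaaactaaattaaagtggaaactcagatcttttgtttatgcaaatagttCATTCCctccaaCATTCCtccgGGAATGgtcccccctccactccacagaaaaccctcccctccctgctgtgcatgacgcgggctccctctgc
The CFB window held 1 match each for interferon regulatory factors, NF-kB and STAT, which began 140, 112 and 92 bases before the start, and none for TEAD. The C1R window held 3 TEAD matches, which began 92, 80 and 70 bases before the start. A second C1R window in the table held no TEAD match and 1 STAT match. Of 27305 promoters with a window of this length, 11.9% had a TEAD match, 6.78% a STAT match, 3.07% a match for interferon regulatory factors and 9.57% an NF-kB match. A single STAT match of CD59 lay in 2 of its 4 windows, which overlap there. No match was found in the windows of C5, CFI, CD46 and CD55. The matches are descriptions of letters and do not show binding.

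CFB encodes factor B, the serine protease precursor of the alternative pathway. Its log2 signals were 9.94, 10.17, 10.05 and 10.00 with the empty vector and 8.87, 8.51, 8.43, 8.52 and 8.41 with YAPS127A. The groups lay apart by more than 1 log2 unit, and YAPS127A replicate 1 was the highest of its group. The means were 10.04 ± 0.10 (SD, n = 4) and 8.55 ± 0.19 (SD, n = 5), a log2 difference of -1.49 (SE 0.10, adjusted p = 6.52e-07 in limma). A second, dim probe set of CFB stayed between 5.43 and 5.71 on all 9 arrays and differed by +0.08 (SE 0.06, adjusted p = 0.431 in limma). Averaged over both probe sets, CFB was lower by less (-0.71) and still passed. In bulk RNA, fewer cells that express a gene and less of its RNA per cell cannot be told apart.

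C3 encodes the central component, whose fragments coat targets and signal inflammation. The empty vector arrays gave log2 signals of 12.44, 12.63, 12.52 and 12.57, and the YAPS127A arrays 11.91, 11.58, 11.47, 11.73 and 11.60. The groups did not overlap, as held in either direction for 28.3% of all genes, and YAPS127A replicate 1 again lay closest to the empty vector. The difference was -0.88 (SE 0.09, adjusted p = 2.22e-05 in limma), from 12.54 ± 0.08 (SD, n = 4) to 11.66 ± 0.17 (SD, n = 5). C3 stayed far above the median of all probe sets in both groups.

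C1R encodes the protease that activates C1S within the first complex of the classical pathway. Its log2 signals were 7.28, 7.57, 7.17 and 7.72 with the empty vector and 6.93, 6.80, 6.68, 6.86 and 6.65 with YAPS127A. The groups did not overlap, although the empty vector arrays spread more widely (SD 0.26, n = 4) than the YAPS127A arrays (SD 0.12, n = 5). The difference was -0.65 (SE 0.11, adjusted p = 0.00116 in limma). C1S, its substrate and chromosomal neighbour, had a brightest probe set at 5.56 ± 0.11 (SD, n = 4) and 5.42 ± 0.18 (SD, n = 5), below the median of all probe sets. It differed by -0.14, with a 95% interval from -0.35 to 0.07 (adjusted p = 0.370 in limma). Its other probe set, also dim, differed by -0.26 (adjusted p = 0.181 in limma), and passed only without empty vector replicate 3 (-0.37, adjusted p = 0.0376 in limma).

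C5 encodes the precursor of the anaphylatoxin C5a and of the first pore subunit. Its log2 signals were 5.22, 5.37, 5.23 and 5.22 with the empty vector and 5.30, 5.74, 5.33, 5.34 and 5.33 with YAPS127A. One array, YAPS127A replicate 2, stood above the other 8, and the groups overlapped. The difference was +0.15 with a 95% interval from -0.06 to 0.35 (adjusted p = 0.318 in limma). CFI, the protease that inactivates cleaved C3 and C4 with the help of cofactors such as CD46, was dimmer still. Its brighter probe set was at 4.31 ± 0.11 (SD, n = 4) and 4.31 ± 0.09 (SD, n = 5), with a difference of -0.00 and a 95% interval from -0.16 to 0.16 (adjusted p = 0.995 in limma). Its other probe set differed by -0.09 (adjusted p = 0.703 in limma). At such low signals a change in C1S, C5 or CFI may lie below what these probe sets can show.

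**Figure D1:**
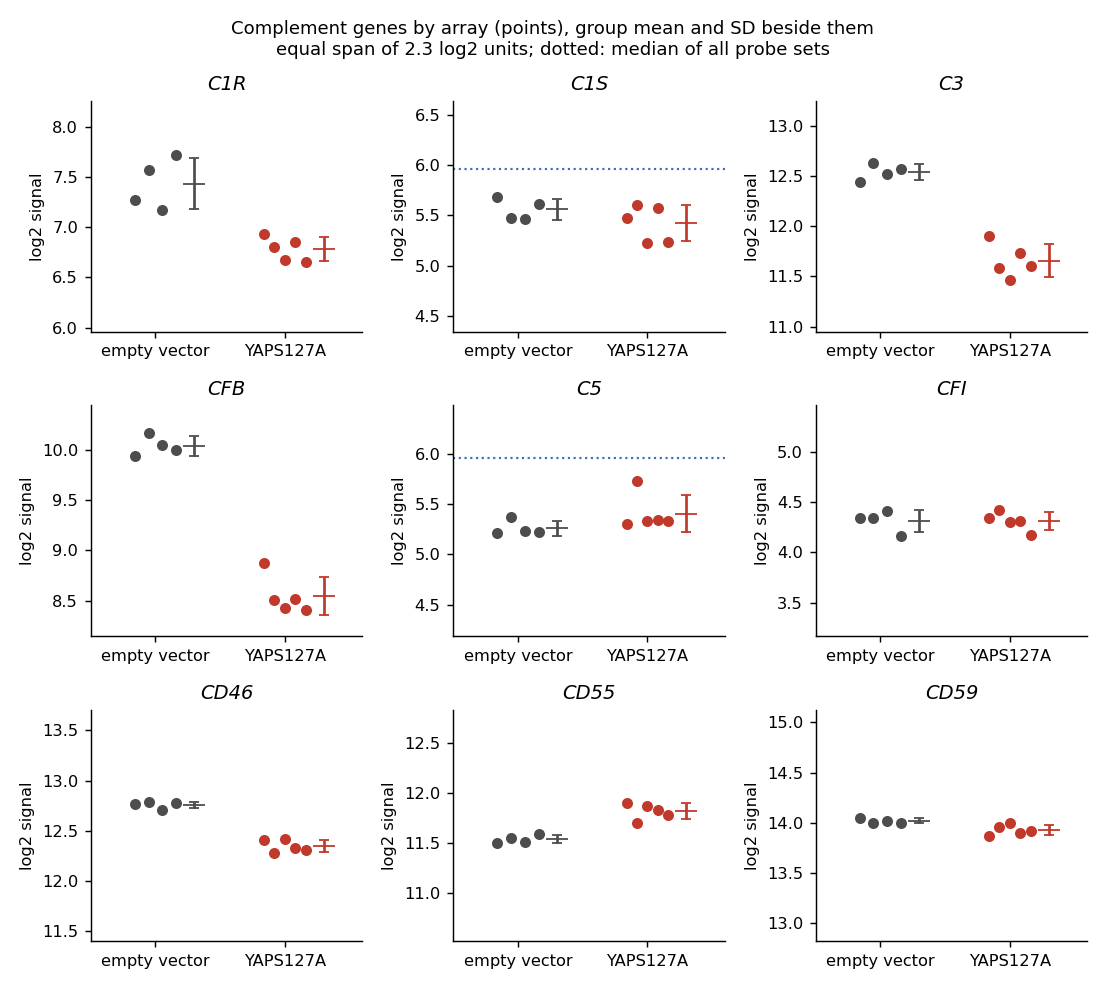
Log2 signal of the brightest probe set of each gene on every array (points), with the group mean and SD beside the points (grey, empty vector, n = 4; red, YAPS127A, n = 5). Each panel spans the same range of log2 units at its own level, and the dotted line, where it falls within a panel, is the median of all probe sets (5.96). CFB, C3, C1R and CD46 are lower with YAPS127A without overlap, CD55 is higher without overlap, and the groups overlap in C1S, C5, CFI and CD59.

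CD46, or membrane cofactor protein, lets CFI destroy C3b and C4b on the cell's own surface. Its brightest probe set had log2 signals of 12.77, 12.78, 12.71 and 12.77 with the empty vector and 12.41, 12.28, 12.42, 12.33 and 12.31 with YAPS127A. Both groups were tight and did not overlap. The difference was -0.41 (SE 0.06, adjusted p = 0.000312 in limma). The other probe sets of CD46 fell by similar amounts, -0.49 (adjusted p = 0.0114 in limma) and -0.48 (adjusted p = 0.0112 in limma), with overlap between single arrays. In both, the lowest empty vector array was replicate 3 and the lowest YAPS127A array was replicate 1. These are the arrays with the largest gap between the 3′ and 5′ actin control probe sets, a sign of RNA quality. Without both arrays these probe sets were lower by as much, at -0.53 (adjusted p = 0.0128 in limma) and -0.52 (adjusted p = 0.00513 in limma).

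CD55, or decay-accelerating factor, breaks up the enzymes that cleave C3 and C5. Its brightest probe set had log2 signals of 11.50, 11.55, 11.51 and 11.59 with the empty vector and 11.90, 11.70, 11.87, 11.83 and 11.78 with YAPS127A. Every YAPS127A array lay above every empty vector array. The difference was +0.28 (SE 0.06, adjusted p = 0.00618 in limma). The other probe sets differed by +0.17 (SE 0.06, adjusted p = 0.0744 in limma) and +0.19 (SE 0.07, adjusted p = 0.0683 in limma), with overlap of 1 or more arrays, and neither passed. Thus 1 of 3 probe sets of CD55 rose and all 3 were higher in mean.

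CD59, or protectin, blocks assembly of the membrane pore. Its brightest probe set, 200985_s_at, had log2 signals of 14.05, 14.00, 14.02 and 14.00 with the empty vector and 13.87, 13.96, 14.00, 13.90 and 13.92 with YAPS127A. The groups met at the top of the YAPS127A range, and the difference of -0.09 (SE 0.06) did not pass (adjusted p = 0.312 in limma). The dimmest, 228748_at, had log2 signals of 8.94, 8.79, 8.68 and 8.82 with the empty vector and 8.02, 8.25, 8.22, 8.10 and 8.12 with YAPS127A, with no overlap. It fell by 0.67 (SE 0.07, adjusted p = 4.18e-05 in limma). Of the other 3 probe sets, 212463_at fell by 0.51 (adjusted p = 8.58e-05 in limma), 200983_x_at fell by 0.23 (adjusted p = 0.0149 in limma) and 200984_s_at differed by -0.11 (adjusted p = 0.347 in limma).

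Whether probe sets of 1 gene changed unequally was tested on their within-array difference from the brightest probe set, by a 2-sided exact permutation test over 11 such pairs. Relative to 200985_s_at, 228748_at was lower by 0.58 and 212463_at by 0.42 with YAPS127A. Both had p = 0.0159, the smallest that 4 and 5 arrays allow in this exact test, and an adjusted p = 0.0582, which did not pass. The dim probe set of CFB had the same p-values in the exact test. As p could go no lower, passing depended on how many of the 11 pairs reached that limit. The test therefore does not show that these probe sets changed equally. Where in the transcripts these probe sets lie is not known here. Averaged over its 5 probe sets, CD59 was lower (-0.32, adjusted p = 0.000237 in limma), so its call depends on how the probe sets are combined. The call of 200983_x_at was lost without both arrays of largest actin gap (-0.22, adjusted p = 0.0520 in limma) and with the replicate number as a block (-0.23, adjusted p = 0.0680 in limma).

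**Figure D2:**
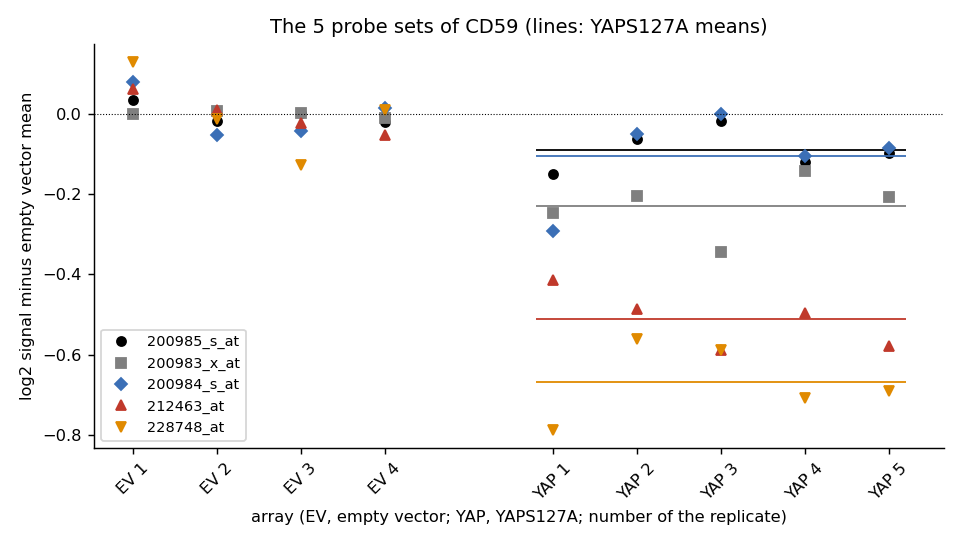
Log2 signal of the 5 probe sets of CD59 on each array, minus the empty vector mean of the same probe set, with a line at each YAPS127A mean. The YAPS127A means run from -0.09 for 200985_s_at to -0.67 for 228748_at, and only 228748_at, 212463_at and 200983_x_at passed the test.

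Because genes side by side on a chromosome can move together, each gene was set beside the median log2 difference of the 50 nearest genes with a signal above the median. The neighbours lay near 0 for CFB (+0.02), C1R (+0.03) and C3 (-0.10). With their median removed on each array, the differences were -1.51 for CFB, -0.68 for C1R and -0.78 for C3, and all 3 passed. The neighbours of CD59, on chromosome 11, lay lower (-0.36), and those of CD46 and CD55, on chromosome 1, also did (-0.28). Without that median CD46 kept a difference of -0.13 and lost its call (adjusted p = 0.136 in limma), whereas CD55 was at +0.56 (adjusted p = 6.29e-05 in limma). The brightest probe set of CD59 turned to +0.27 (adjusted p = 0.00358 in limma), while 228748_at stayed at -0.30 (adjusted p = 0.00772 in limma) and 212463_at lost its call (-0.15, adjusted p = 0.101 in limma), as did 200983_x_at. Both other probe sets of CD46 also lost theirs (-0.21 and -0.20, adjusted p = 0.253 and 0.256 in limma). The subtraction assumes that a gene's signal follows its neighbours, and where it does not it can create a difference, as in the dim CR2 (+0.44) and CR1 (+0.34) named below, which passed only after it.

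**Figure D3:**
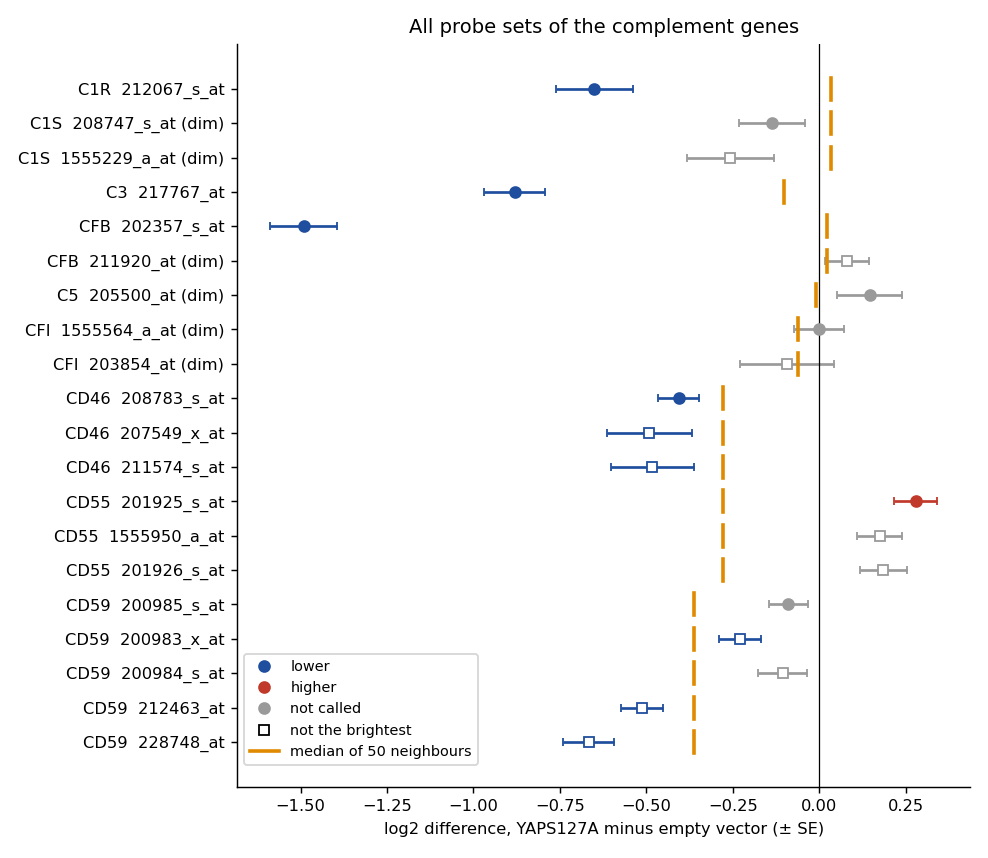
Log2 difference between YAPS127A and empty vector (± SE) for each of the 20 probe sets, filled for the brightest of a gene and open for the others, with the median difference of 50 neighbouring genes as an orange bar. Probe sets marked dim lie below the median of all probe sets. The brightest probe sets of CFB, C3 and C1R lie far to the left of their neighbours, the dim second probe set of CFB lies to the right, CD46 just to the left, CD55 to the right, and CD59 on both sides.

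CD46 and CD55 lie in the cluster of complement regulators on chromosome 1, where 7 genes had a probe set. This group was set out after its values were seen. In gene order C4BPB rose by 0.56 and CD55 by 0.28, C4BPA, CR2, CR1 and CR1L lay below the median of all probe sets and did not pass, and CD46 fell at the far end. C4BPB encodes a chain of the plasma inhibitor C4b-binding protein. Its log2 signals were 12.77, 12.74, 12.60 and 12.87 with the empty vector and 13.28, 13.39, 13.23, 13.32 and 13.29 with YAPS127A, with no overlap (SE of the difference 0.07, adjusted p = 9.77e-05 in limma). The median of its neighbours was -0.30, so C4BPB and CD55 were higher where the genes around them were lower. C4BPA, which encodes the other chain of that inhibitor, differed by -0.18 from a log2 signal of 5.47 to one of 5.29 (adjusted p = 0.134 in limma).

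**Figure D4:**
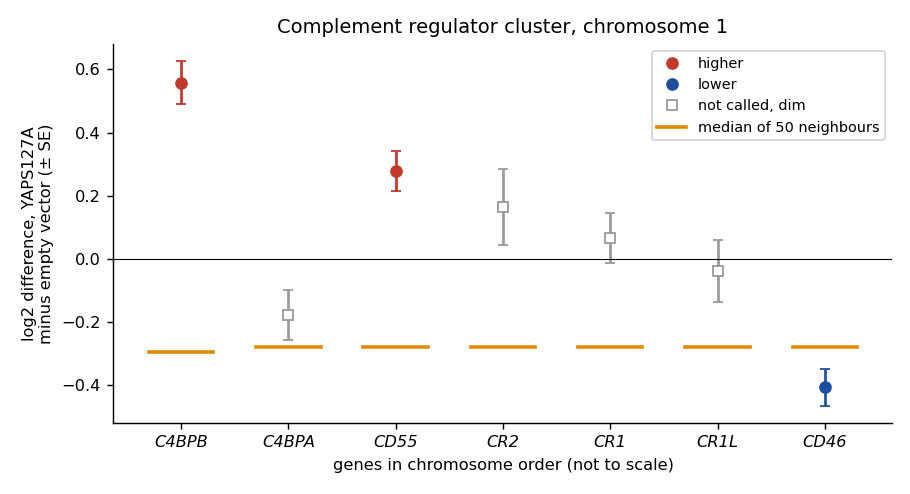
Log2 difference between YAPS127A and empty vector (± SE) for 7 genes of the regulator cluster in chromosome order, with the median of 50 neighbours in orange. C4BPB and CD55 are higher, CD46 is lower, and the 4 open symbols are dim genes that did not pass.

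Pairs of members set by role were compared within each array, which reads change and not relative level. In exact permutation (2-sided) each of the 6 pairs reached p = 0.0159, the lower limit of this design, which stayed 0.0159 when adjusted over the 6 pairs. CD46 lost 0.69 on the log2 scale relative to CD55, from a difference of 1.22 ± 0.04 (SD, n = 4) to 0.54 ± 0.03 (SD, n = 5). That was the pair with the smallest spread in the YAPS127A group. As CD46 fell and CD55 rose, each without overlap, the exact test of this pair could only return its lower limit. CD46 changed by -0.32 and CD55 by +0.37 relative to the brightest probe set of CD59. With the mean over probe sets, CD46 relative to CD59 was at -0.14 and did not pass (adjusted p = 0.127 in the exact test). In the other 3 pairs, CFB with CFI (-1.49), C3 with C5 (-1.03) and C1R with C1S (-0.51), the second gene was dim, so these values restate the fall of the first gene and do not show unequal change.

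The rest of the system was read from a list of 51 further complement genes, of which 44 had a probe set with a single symbol. Of these, 3 rose, 4 fell and 37 did not pass, with a median log2 difference of 0.02, and 34 of the 44 lay below the median of all probe sets. The 7 calls among 44 genes stand beside 28.7% of all genes, and the 6 calls among the 10 genes above the median beside 40.7%. The highest rise was that of ITGB2, the integrin chain shared by complement receptors 3 and 4. It had log2 signals of 7.37, 7.51, 7.06 and 7.43 with the empty vector and 9.77, 9.94, 9.48, 9.61 and 9.52 with YAPS127A, a 5.00-fold rise (difference 2.32, SE 0.11, adjusted p = 7.43e-08 in limma). A second probe set of ITGB2 rose by 2.16 and the remaining one by 0.33. Its partner chains ITGAM (+0.03) and ITGAX (-0.06) did not pass and were dim.

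C7, a subunit of the membrane pore, fell by 1.48 (SE 0.16, adjusted p = 3.67e-05 in limma), from 6.02 ± 0.22 (SD, n = 4) to 4.54 ± 0.33 (SD, n = 5), so its level with YAPS127A lay close to the lower quartiles of the arrays (4.24 to 4.27). Its other probe set was dimmer, at 2.89 in both groups, and did not pass. CFD, the protease that cleaves factor B, fell by 0.84 (SE 0.11, adjusted p = 0.000183 in limma). Thus both proteases of the alternative pathway, CFB and CFD, were lower. SERPING1, the inhibitor of C1R and C1S, was dim at 4.77 and 4.68 and differed by -0.09 (adjusted p = 0.684 in limma). VTN was among the 7 genes without a probe set of a single symbol.

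The other calls were small. THBD, or thrombomodulin, fell by 0.23 (adjusted p = 0.0230 in limma), CLU, or clusterin, which binds the forming pore, rose by 0.25 (adjusted p = 0.0435 in limma), and C3AR1, the receptor of C3a, fell by 0.38 (adjusted p = 0.0455 in limma). Other probe sets of THBD differed by -0.29 (adjusted p = 0.00497 in limma) and -0.21 (adjusted p = 0.144 in limma). Those of CLU differed by +0.35, +0.24 and +0.13 (adjusted p = 0.016, 0.033 and 0.419 in limma). At its brightest probe set THBD did not pass without empty vector replicate 1 (-0.21, adjusted p = 0.0709 in limma). The brightest probe set of CLU did not pass without empty vector replicate 1 or 2 or YAPS127A replicate 1, 2 or 4 (0.21 to 0.26, adjusted p from 0.0615 to 0.124 in limma). C3AR1 did not pass without empty vector replicate 1, 3 or 4 or YAPS127A replicate 2, 4 or 5 (-0.41 to -0.25, adjusted p from 0.0605 to 0.119 in limma). Without empty vector replicate 1 the list held 4 calls, 2 in each direction, and the same counts were found without both arrays of largest actin gap.

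**Figure D5:**
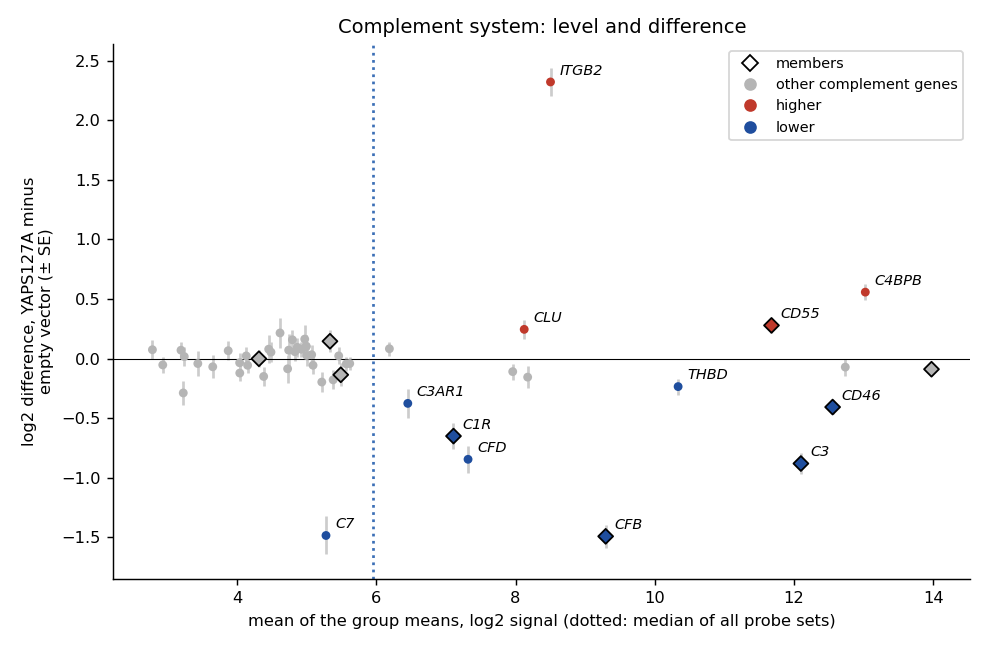
Log2 difference between YAPS127A and empty vector (± SE) against the mean signal for the 9 genes (diamonds) and 44 further complement genes (circles), with called genes in colour and named. Of the called genes only C7 lies to the left of the median of all probe sets (dotted), and the dim genes cluster around 0.

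Genes that are known to raise transcription of complement genes, namely cytokines, their receptors and transcription factors, were lower more often than higher. Of 19 such genes measured, 11 fell, 1 rose and 7 failed the test, with a median log2 difference of -0.28. All 19 lay above the median of all probe sets, where 19.7% of genes passed as lower and 21.0% as higher. The cytokine genes IL6 (-1.92, adjusted p = 2.29e-08 in limma), IL1B (-1.48) and TNF (-0.52) fell, as did the interleukin 1 receptor gene IL1R1 (-1.02). The interferon gamma receptor gene IFNGR1 fell by 0.62 and lay beside neighbours that were lower by a median of -0.37. The transcription factor gene CEBPD fell by 0.76. The exception was OSMR, the oncostatin M receptor gene, which rose by 0.24 and was named after its value was seen. Other probe sets of OSMR rose by 1.28 (adjusted p = 1.15e-06 in limma) and 0.33 (adjusted p = 0.0175 in limma). The listed subunit genes of NF-kB were also named after their values were seen. Of these, RELA (+0.10), NFKB1 (-0.18) and NFKB2 (+0.05) did not pass. RELB fell by 0.29 (adjusted p = 0.0246 in limma), with overlap between single arrays. A link between these genes and the complement genes was not tested.

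For the 3 genes with the lowest p-values, the genes with the most similar profile were sought by the Euclidean distance of log2 signals over the 9 arrays, centred on the empty vector mean, among 12220 genes above the median. For CFB these were PRSS2 (distance 0.27, difference -1.55), KSR1 (0.35, -1.52) and RGS2 (0.38, -1.49). The PRSS2 probe set may also read near-identical trypsinogen genes. For C3 they were ZNF165 (0.20, -0.92), OTUB2 (0.26, -0.86) and REEP6 (0.27, -0.80). For CD46 they were UBR7 (0.14, -0.40), TMF1 (0.15, -0.37) and SLC35E3 (0.15, -0.36). Distances are in log2 units and are descriptions with no test.

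The arrays were alike in overall level, with medians between 5.95 and 5.98. YAP1 itself differed by +0.15, from 12.56 ± 0.06 (SD, n = 4) to 12.71 ± 0.07 (SD, n = 5) on the log2 scale (adjusted p = 0.121 in limma), and whether its probe set reads the construct is unknown. Of 10 cholangiocyte markers with a probe set, 7 lay above the median and 5 fell, CFTR (-2.72) and TFF1 (-1.46) the most. The log2 of their summed signals was 15.6 with the empty vector and 15.5 to 15.6 with YAPS127A. Such a sum is set mostly by the brightest markers, here KRT19 at 14.2 in both groups. Of 11 hepatocyte markers 1 rose (CPS1, +2.09) and 1 fell (SERPINA1, -0.62), with ALB at 4.26 and 4.23. The log2 of their summed signals was 12.8 to 12.9 with the empty vector and 12.4 to 12.5 with YAPS127A. Of 9 leukocyte and macrophage markers 2 fell (LYZ, -2.25, and CD14, -0.45), with PTPRC at 4.05 and 4.03. The log2 of their summed signals was 8.79 to 8.95 and 8.17 to 8.36. Of 8 fibroblast markers 2 rose (LUM, +1.45, and POSTN, +0.89) and 1 fell (COL1A1, -0.70), with COL3A1 at 4.88 and 4.90. Their signals summed to a log2 of 9.79 to 10.03 and 10.38 to 10.74. The actin gap was 0.985 to 1.69 with the empty vector and 0.888 to 1.58 with YAPS127A, and without the array of largest gap in each group the 9 genes again gave 4 lower and 1 higher. The same counts were found with the gap as a covariate, where CFB differed by -1.44 and C3 by -0.84. The part of the marker lists in the results was not tested.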

How the data were processed

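Total RNA was amplified, labelled with biotin and hybridised to single-colour arrays, per the labels. The authors deposited 1 log2 signal for each probe set and array, a scale judged here from the range of 1.62 to 14.96. Array medians were nearly equal, and how the authors normalized is not stated in the labels. There were 0 columns of other samples. The 62 control probe sets were left out of the tests, which covered 54613. Of these, 41091 carry 1 gene symbol in the platform annotation, 1801 several and 11721 none. RefSeq of GRCh38.p14 matched 41037 by gene ID and gave current symbols. A gene was represented by its brightest probe set.

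Differences were fitted with lmFit and tested with eBayes (limma 3.58.1 under R 4.3.3) without covariates (11.4 total degrees of freedom), with Benjamini-Hochberg adjustment over all probe sets at 0.05. Errors of differences are SE and those of levels SD. The number of arrays limits the precision. Within-array differences were compared by exact permutation in scipy 1.17.1. Figures were drawn in matplotlib 3.10.9.

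The genes and lists were chosen with earlier results of these arrays known. The rule for named genes takes the 9 genes, up to 12 called genes of the complement list plus CLU, SERPING1, C4BPB, VTN and 1 gene not reported here, up to 6 called inducers of lowest p, and 3 nearest profiles. C1S, C5, CFI and CD59 are given although they did not pass. ITGAM, ITGAX, SUSD4, C4BPA, CR2, CR1 and CR1L were added after their values were seen.

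The scripts were tested on simulated data with known answers. Of 50 changes simulated at each size, 4% were recovered at 0.25 log2 units, 42% at 0.5, 90% at 1 and 100% at 2. Among unchanged probe sets 3 passed. Far fewer probe sets were changed there than passed in the data, which makes the adjustment stricter. Alternatives were quantile normalization, median centring, dim probe sets left out, trend and robust eBayes, each array left out, array weights, a block for the replicate number, the mean of probe sets, neighbours' median removed, and the actin gap as a covariate or by leaving out its 2 largest arrays. A pseudocount was not needed on a log scale.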

Additional observations from a re-analysis of the deposited data

Results flagged for a closer look

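Single arrays stood apart from the rest of their group by Dixon's criterion at 95% in 4 of 68 groups examined, and chance alone gives about 1 in 20. CFB on YAPS127A replicate 1 had a log2 signal of 8.87, against 8.41 to 8.52 on the other 4 arrays. C5 stood apart on YAPS127A replicate 2 (5.74, others 5.30 to 5.34) and on empty vector replicate 2 (5.37, others 5.22 to 5.23). CFD on YAPS127A replicate 3 was at 6.51, against 6.93 to 7.04 on the others. Without YAPS127A replicate 1 the difference of CFB was -1.57.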

How the results depend on the processing

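The 9 genes gave 5 calls with each of the 9 arrays left out in turn, and C3, CFB, C1R and CD55 passed under all 19 alternatives. CD46 passed under 18, and with the neighbours' median removed was at -0.13. CD59 passed at -0.32 when its 5 probe sets were averaged, and was at +0.27 with the neighbours' median removed. CFI, close to 0, turned positive with the actin gap as covariate (0.0110), array weights (0.0057), the neighbours' median removed (0.0609), the replicate block (0.0333) and without both arrays of largest actin gap (0.0224), and ranged from -0.0525 to 0.0333 as single arrays were left out. It passed under none. With the neighbours' median removed, 200983_x_at (+0.13), 200984_s_at (+0.26) and SERPING1 (+0.0765) changed sign. The replicate block put SERPING1 at 0.0007.

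The further complement genes gave 15 calls with the neighbours' median removed, 4 with the replicate block, 4 without both arrays of largest actin gap, and 4 to 7 with single arrays left out. Without both arrays of largest actin gap the smallest exact p is 0.0571, so no pair could pass; C1R to C1S, C3 to C5, CFB to CFI, CD46 to CD55, CD46 to CD59 and CD55 to CD59 were then at -0.60, -1.11, -1.59, -0.69, -0.37 and 0.32. CD46 to CD59 was at -0.14 with the mean of probe sets. With single arrays left out, the second CFI probe set differed by -0.166 to 0.0423, SERPING1 by -0.179 to 0.0007, and the within-array differences of CFI, CD46 (211574_s_at) and CD59 (200984_s_at) probe sets lay between -0.1971 and 0.0332, -0.1613 and 0.0001 and -0.032 and 0.0144. The cause of these changes was not tested.

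Replicate numbers did not pair the arrays: deviations of same-numbered arrays correlated at -0.46, -0.02, -0.05 and 0.03. With the replicate block the 9 genes gave 5 calls, with CFB at -1.46 and CD55 at 0.29 (adjusted p = 0.0402 in limma), and all probe sets gave 10306 calls in place of 13052.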
